A study of Drosophila melanogaster with 18 samples.

Results

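In Drosophila melanogaster moved to a banana diet, 52 genes had a ratio below 0 on each of 6 slides when their RNA was set against that of animals on cornmeal. These genes were chosen by the measured ratios themselves. The 3 sets of repeat spots on a slide were averaged, the slide median was subtracted, the sign was reversed on slides with the control RNA in channel 1 ("turned"), and the probes of a gene were averaged. A gene entered if it lay below 0 on all 6 slides with a mean of -0.4 or less. Of the 4144 genes with a value on every slide, 118 lay below 0 on all 6 (2.85%, beside 158 above 0 on all 6, or 3.81%), and 63 also met the limit (1.52%). Of these, 11 were left out by symbol, because they belong to other groups such as peptidase, kinesin, glutathione transferase and desaturase genes, among them Bace (-2.36), Kap3 (-1.23) and Fst (-1.10). Another 430 of the 4574 genes on the array lacked a value on some slide and could not enter. Because the ratios chose the genes, the ratios below are descriptions and carry no test.

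Total RNA of animals switched to banana (experimental) and of animals kept on the cornmeal diet (control) shared each 2-colour slide. Banana RNA was in channel 1 on slides 2, 30 and 28, and cornmeal RNA was in channel 1 on slides 3, 29 and 25. Slides 2 and 3 were dye flips of each other (pair 1), as were slides 30 and 29 (pair 2) and slides 28 and 25 (pair 3). Each pair counted as 1 replicate (n = 3). The labels give no strain, genotype, sex, age, tissue, number of animals or time on banana. They also do not state whether each pair had its own batch of animals. SDs and p-values from the 3 pair ratios therefore cover only pair-to-pair spread that could be technical. The labels used here do not name the numerator channel. A negative ratio means less transcript on banana if values are channel 1 over channel 2, and more on banana if they are the reverse, so neither diet is called higher. Values are taken as log2.

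Several of these genes belong to processes with textbook roles. Sugar chains are built from nucleotide sugars by transferases in the endoplasmic reticulum and Golgi, and are attached to secreted and membrane proteins and to lipids. Mondo, the fly counterpart of the mammalian factor ChREBP, turns on genes of sugar use when sugar is eaten, while REPTOR is a transcription factor that becomes active when the nutrient-sensing kinase complex TORC1 is shut off. Short neuropeptide F, acting on its receptor sNPF-R, promotes feeding in flies.

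Between 4860 and 5149 of 5620 probes had a value in each of the 18 columns. On all 6 slides spot set 1 had the lowest and spot set 3 the highest median. Across genes, turned ratios of the slides of a pair correlated with r between 0.07 and 0.38, and those of slides of different pairs with r between -0.23 and 0.25. These are descriptions across genes, which are not independent replicates. With limma on the 3 pair ratios, Benjamini-Hochberg adjusted p-values fell under 0.05 for 0 of 4723 tested rows (0%). Unadjusted p-values did so for 380 rows (8.05%). Fitted as 6 slides with the pair as a replicate block, limma called 20 rows, of which CG10912, CG14897, CG32302, CG7298, CG9312 and Cog8 are among the 52, and without a block it called 1, which is not. The block fit used a common correlation between the slides of a pair, -0.089, for all rows. In the block and no-block fits both slides of a pair add to the degrees of freedom, and the contrast is the one that chose the genes. For the same reason nothing is read from the unadjusted p under 0.05 of 46 of the 52 genes (3.64% of all rows on the negative side).

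The means of the 52 genes ran from -1.49 to -0.40 with a median of -0.61, which is 1.32-fold to 2.81-fold on a linear scale. Of these genes 13 lay under -1, 14 between -1 and -0.6, and 25 above -0.6. Every slide stood under -0.2 for 27 of them, while 15 came within 0.1 of 0 on some slide. The median of the 52 genes was -0.72 in pair 1, -0.63 in pair 2 and -0.56 in pair 3. Pair 1 was the most negative for 27 genes, pair 2 for 14 and pair 3 for 11, and pair 3 was closest to 0 for 25. By slide, slide 3 was most often the lowest (17 genes) and slide 28 most often the one nearest to 0 (18 genes). The medians of the slides still lay close together, between -0.85 and -0.57. At the limit of the rule the last genes inside were stau (-0.43) and Mondo (-0.40), and the first outside were CG6928 (-0.399) and CG6304 (-0.387), both below 0 on all 6 slides. The mirrored rule took 74 genes (1.79%) on the positive side before any symbol was left out.

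**Figure D1:**
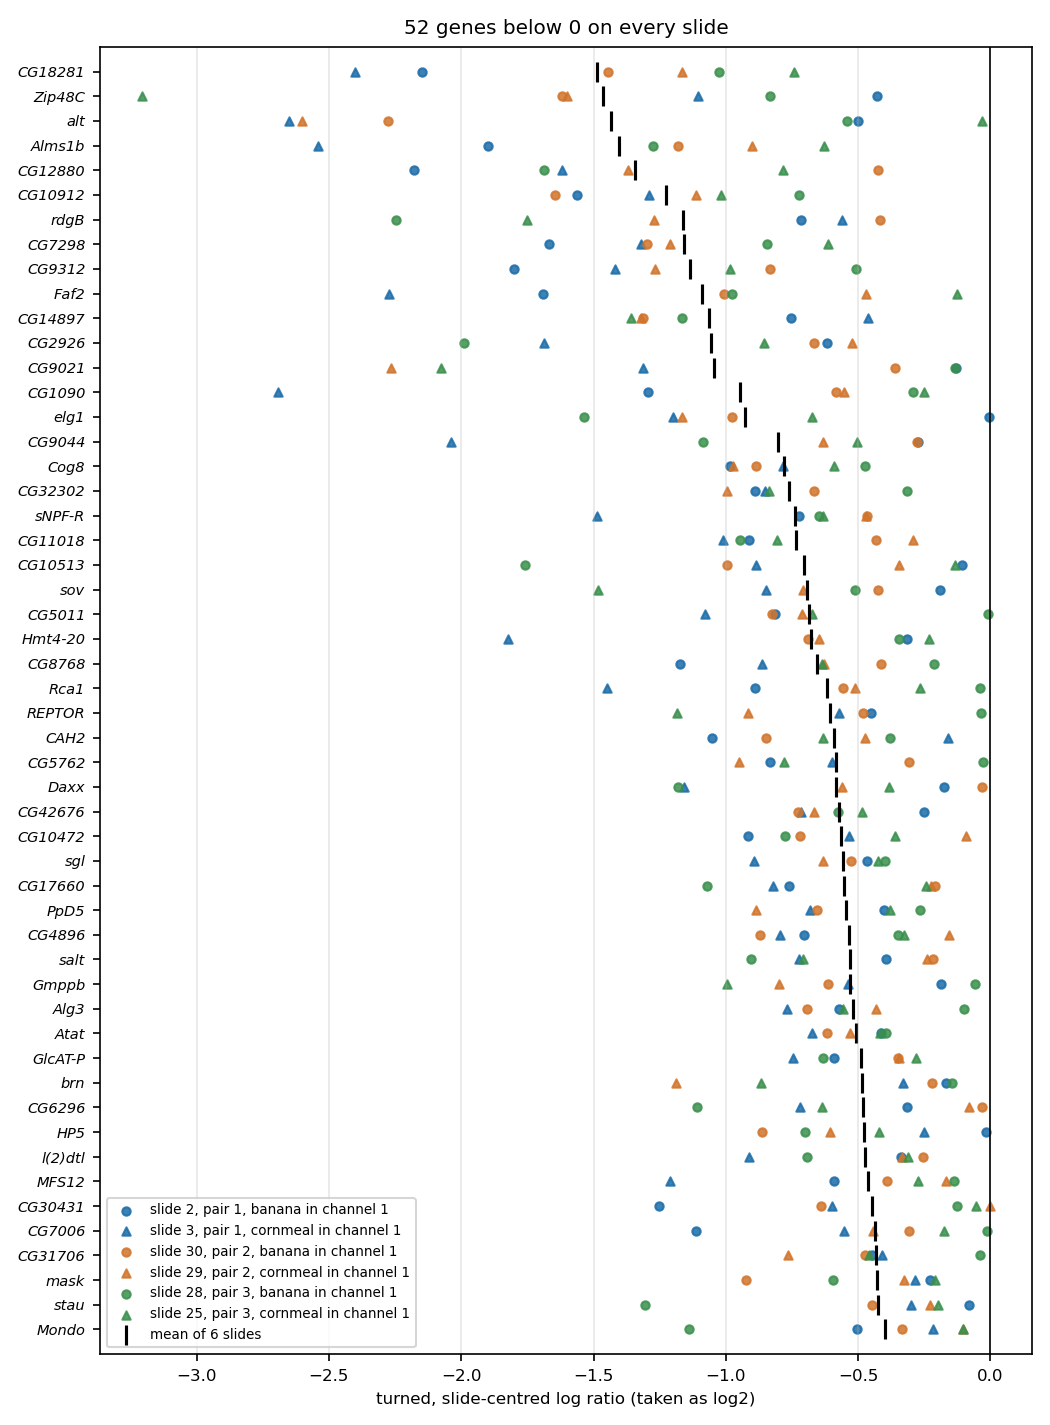
Turned, slide-centred log ratios (horizontal axis, log2) of the 52 genes, ordered by their mean; colours mark the flip pair, circles slides with banana RNA in channel 1, triangles slides with cornmeal RNA in channel 1, and black ticks the mean of 6 slides. The means run from -1.49 (CG18281) to -0.40 (Mondo), and 15 genes have a slide within 0.1 of 0.

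Genes of sugar chain building and Golgi traffic gave 6 of the 52, with means between -0.78 and -0.49. The gene sgl encodes UDP-glucose dehydrogenase, which makes UDP-glucuronic acid for proteoglycan chains. It had -0.47 and -0.89 on slides 2 and 3, -0.53 and -0.63 on slides 30 and 29, and -0.40 and -0.43 on slides 28 and 25, a mean of -0.56 ± 0.14 (SD, n = 3). Its 2 probes agreed, with means of -0.53 and -0.59 and all 6 slides negative for each. Its slides thus ran from -0.89 to -0.40, and pair 3 was the closest to 0.

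Gmppb encodes GDP-mannose pyrophosphorylase, which supplies activated mannose, and averaged -0.53 ± 0.17 (SD, n = 3). Its slides spread from -0.058 on slide 28 to -0.997 on slide 25, both of pair 3. Alg3, a mannosyltransferase of the lipid-linked sugar that is moved onto proteins, averaged -0.52 ± 0.18 (SD, n = 3). It had -0.57 and -0.77 in pair 1, -0.70 and -0.43 in pair 2, and -0.10 and -0.56 in pair 3. For both genes slide 28 was the nearest to 0.

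GlcAT-P, a glucuronyltransferase, averaged -0.49 ± 0.16 (SD, n = 3), with slides between -0.75 and -0.28. The gene brn encodes the N-acetylglucosaminyltransferase that extends glycosphingolipids and also averaged -0.49 ± 0.23 (SD, n = 3). Its slides of the cornmeal orientation averaged -0.80 and those of the banana orientation -0.18, and only 11 of its 18 spots had a value. Cog8, a subunit of the conserved oligomeric Golgi complex that tethers vesicles and keeps glycosyltransferases in place, was the most negative of the group. It had -0.99 and -0.78 on slides 2 and 3, -0.89 and -0.97 on slides 30 and 29, and -0.47 and -0.59 on slides 28 and 25, with a mean of -0.78 ± 0.22 (SD, n = 3). Its orientations averaged -0.78 each and all 18 of its spots were negative.

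Other genes of these pathways were drawn up by symbol after the 52 genes had been seen, so their counts are descriptions. Of 41 measured genes of sugar chain building, 5 belong to the 52 and are negative by selection. Of the other 36 genes 23 had a negative and 13 a positive mean (63.9% negative, beside 49.4% of the 4092 measured genes outside the set), with a median of -0.12. With limma on the pair ratios 0 of the 41 passed the adjusted threshold, and 1 of the 36 had an unadjusted p under 0.05, on the negative side. Of the 4092 measured genes outside the set, 110 had such a p on the negative side and 179 on the positive side. Alg9, another mannosyltransferase of the same lipid-linked sugar, was the 1 further gene below 0 on all 6 slides (-0.22). The partner of brn in glycosphingolipid synthesis, egh, had -0.17 with 4 of 6 slides negative, and tw, a protein O-mannosyltransferase gene, stood highest at 0.49. Of the other measured Golgi complex genes, Cog4 had -0.39, Cog6 -0.08, and Cog1 and fws 0.01 each, none of them below 0 on all 6 slides.

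**Figure D2:**
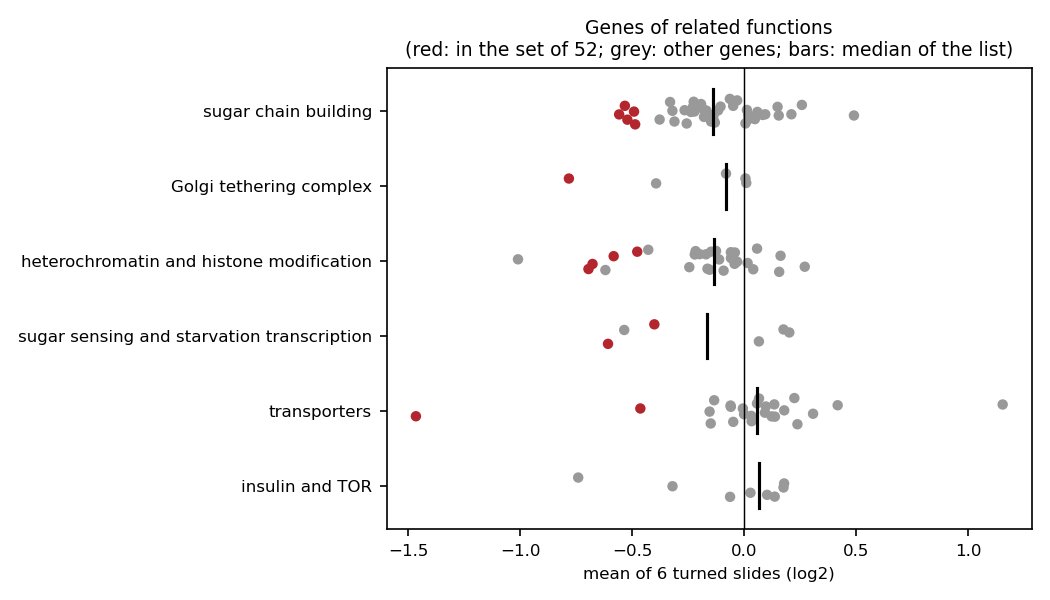
Mean log ratio of 6 turned slides (horizontal axis, log2) for genes of 6 functional lists; red points are genes of the 52, grey points the other measured genes of the list, and vertical bars the list medians, with points shifted vertically at random for legibility. Of the genes outside the 52, 23 of 36 of sugar chain building and 7 of 23 transporters lie below 0; the list medians include the red points, which are below 0 by selection.

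Nutrient-responsive regulators and a feeding receptor had means of -0.40 (Mondo), -0.61 (REPTOR) and -0.74 (sNPF-R). Mondo had -0.51 and -0.22 on slides 2 and 3, -0.33 and -0.10 on slides 30 and 29, and -1.14 and -0.11 on slides 28 and 25, a mean of -0.40 ± 0.20 (SD, n = 3). It was lower in the banana orientation (-0.66) than in the cornmeal orientation (-0.14), and slide 28 alone lay under -1. Without pair 3 its mean was -0.29. REPTOR averaged -0.61 ± 0.094 (SD, n = 3), with -0.51, -0.70 and -0.61 in pairs 1, 2 and 3. The small SD of the pairs covers slides that differed widely in pair 3, at -0.035 and -1.19.

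The receptor gene sNPF-R averaged -0.74 ± 0.33 (SD, n = 3), with -0.72, -1.49, -0.47, -0.47, -0.65 and -0.63 on slides 2, 3, 30, 29, 28 and 25. Its slides fell close together apart from slide 3, but only 13 of its 18 spots had a value. Slide 30 rested on 1 spot (-0.47), and slide 29 averaged spots at 0.33 and -1.27. Among related regulators, listed after the 52 genes had been seen, sug, which encodes a sugar-responsive transcription factor, had -0.53 with 5 of 6 slides negative. The Mondo partner gene bigmax had 0.20, foxo 0.18 and crc, the fly ATF4 gene, 0.07. The 8 measured genes of insulin and TOR signalling had a median of 0.07, with 3 negative and 5 positive. Of these 8, gig, the TSC2 gene, was below 0 on all 6 slides with a mean of -0.32, above the limit of the rule.

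Transport genes included the second most negative gene of the set. Zip48C, a zinc transporter gene of the ZIP family, had -0.43 and -1.10 in pair 1, -1.62 and -1.60 in pair 2, with -0.83 and -3.21 in pair 3, a mean of -1.47 ± 0.64 (SD, n = 3). All 15 of its measured spots were negative, and slide 25 rested on spots at -0.61 and -5.80. MFS12, of the major facilitator family, averaged -0.46 ± 0.38 (SD, n = 3) and was most negative in pair 1 (-0.90, against -0.28 and -0.21). Its value on slide 3 rested on 1 spot (-1.21). The gene salt, of the family of sodium-coupled solute carriers, averaged -0.53 ± 0.29 (SD, n = 3), and CG1090, a predicted calcium and sodium exchanger gene, -0.94 ± 0.92. The ratio of CG1090 came mostly from pair 1, at -1.99 against -0.57 and -0.27. In that pair slide 3 rested on 1 spot (-2.69) and slide 2 on spots at -2.50 and -0.087. Of the other 23 measured genes of the transporter list, 7 were negative and 16 positive with a median of 0.07, and none was below 0 on all 6 slides. Another ZIP gene, Zip99C, had 0.03, and the zinc exporter genes ZnT35C and ZnT41F had -0.13 and -0.0050.

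CAH2, a carbonic anhydrase gene, combined a small spread over pairs with scattered spots. Its pairs had -0.61, -0.66 and -0.51, an SD of 0.078 that is the smallest of the 52 genes. Its 14 measured spots ran from -3.92 to 4.97, both on slide 3, and 10 of them were negative. With the median of spots in place of the mean its ratio was -0.91 rather than -0.59.

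Chromatin genes included sov, a zinc-finger gene needed for heterochromatin in the ovary, with a mean of -0.69 ± 0.26 (SD, n = 3). It had -0.19 and -0.85 in pair 1, -0.43 and -0.71 in pair 2, while pair 3 had -0.51 and -1.48. The slide with cornmeal RNA in channel 1 was therefore the lower one in every pair. HP5, a heterochromatin protein gene, averaged -0.48 ± 0.31 (SD, n = 3), with slide 2 at -0.015 and slide 30 at -0.86. Daxx, a histone chaperone gene, averaged -0.58 ± 0.25 and Hmt4-20, the histone H4 lysine methyltransferase gene also known as Suv4-20, -0.68 ± 0.39 (SD, n = 3 each). Both of these combine 2 probes that disagreed, as described below. A list of 30 chromatin genes drawn up after the 52 genes had been seen holds these 4, which are negative by selection. Of the other 26 genes 20 were negative and 6 positive (76.9% negative, beside 49.4% of the 4092 measured genes outside the set), with a median of -0.10. The lowest was the remodelling complex gene mor at -1.01, with 4 of 6 slides negative, and trx, a Trithorax histone methyltransferase gene, had -0.62 with 5 of 6. With limma 0 of the 30 passed the adjusted threshold, and 1 of the 26 had an unadjusted p under 0.05, on the negative side. Such a p was found for 110 of the 4092 measured genes outside the set on the negative side and 179 on the positive side.

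Cell cycle genes were represented by Rca1, an inhibitor of the anaphase-promoting complex, by l(2)dtl, the Cdt2 substrate receptor of a ubiquitin ligase, and by elg1, which unloads the replication clamp. Rca1 differed between pairs, with -1.17, -0.53 and -0.15 in pairs 1, 2 and 3, and had a mean of -0.62 ± 0.51 (SD, n = 3). The gene l(2)dtl averaged -0.47 ± 0.17 (SD, n = 3), with slides between -0.91 and -0.25. On the chromosome it lies next to Alg3, and these were the only members of the set within 2 protein-coding genes of each other. The gene elg1 averaged -0.93 ± 0.28 (SD, n = 3), with -0.00495 on slide 2 and -1.54 on slide 28. Of these genes l(2)dtl and Rca1 had all 18 spots measured, and elg1 had 17.

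Cytoskeletal and membrane genes gave some of the lowest ratios. Alms1b, a relative of the centrosomal gene mutated in human Alström syndrome, had -1.90 and -2.54 in pair 1, -1.18 and -0.90 in pair 2, and -1.27 and -0.63 in pair 3, a mean of -1.40 ± 0.71 (SD, n = 3). Pair 1 was well below the other pairs. Its neighbour Alms1a is a close copy, and how far the probe tells them apart is unknown. Faf2, of a family of ubiquitin-like domain proteins that act at the endoplasmic reticulum and lipid droplets, averaged -1.09 ± 0.78 (SD, n = 3), with pair values of -1.98, -0.74 and -0.55. Atat, the alpha-tubulin acetyltransferase gene, had one of the steadiest ratios, -0.51 ± 0.090 (SD, n = 3), with slides from -0.67 to -0.39. PpD5, a protein phosphatase gene, averaged -0.54 ± 0.22 (SD, n = 3).

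The lowest mean of a gene with more than 1 probe was that of alt, at -1.43 ± 1.08, followed by rdgB, a phosphatidylinositol transfer protein gene of photoreceptors, at -1.16 ± 0.73 (SD, n = 3 each). The mRNA-binding gene stau, which acts in mRNA localisation, averaged -0.43 ± 0.29 (SD, n = 3). Its slides were -0.082, -0.30, -0.45, -0.23, -1.31 and -0.20 in the order 2, 3, 30, 29, 28 and 25, so that slide 28 stood alone. Only 9 of its 17 measured spots were negative. The ankyrin repeat gene mask averaged -0.43 ± 0.19 (SD, n = 3).

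Probes of one gene did not always give one ratio. Of the 6 genes of the set with more than 1 probe, only sgl met the rule with every probe. For alt, one probe had values on 3 slides, from 4 spots, with a mean of -3.58, and the other had 6 slides with a mean of -0.60 and was positive on slides 2 and 3 (0.35 and 0.18). For rdgB, one probe had 3 slides from 3 spots with a mean of -2.49, and the other was positive in pair 1, at 1.61 and 0.87, and averaged -0.42. Both genes were negative in pair 1 only through the probe with few spots.

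One probe of Hmt4-20 averaged -1.41 with 6 of 6 slides negative, while the other averaged 0.05 with 2 of 6. The probes of Daxx had means of -0.81 and -0.35, with 5 and 4 of 6 slides negative. The 4 probes of mask had means between -0.86 and -0.14, and none was negative on more than 5 slides. These 5 genes therefore met the rule as averages of probes, and not probe by probe.

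**Figure D3:**
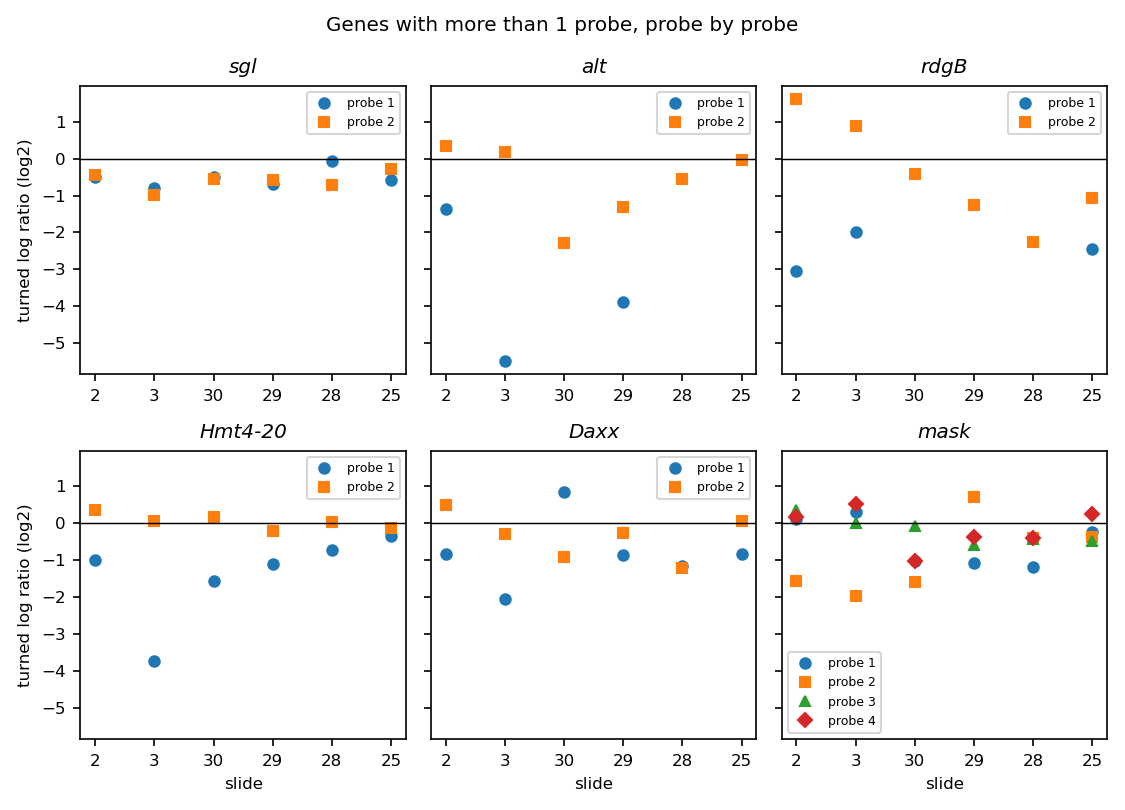
Turned log ratio (vertical axis, log2) of every probe on each slide (horizontal axis, slide number, in the order of pairs 1, 2 and 3) for the 6 genes with more than 1 probe. The probes of sgl lie together below 0, while alt, rdgB, Hmt4-20, Daxx and mask have probes on both sides of 0.

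Genes with predicted products of the gut lumen or body surface included CG7298, a predicted chitin-binding protein gene, with a mean of -1.16 ± 0.39 (SD, n = 3). It had -1.67 and -1.32 in pair 1, -1.30 and -1.21 in pair 2, and -0.85 and -0.62 in pair 3. CG32302, also predicted to bind chitin, averaged -0.76 ± 0.16 (SD, n = 3), with slides between -0.99 and -0.32. In both genes all 18 spots were negative once each spot set was centred on its own median. The predicted serine protease gene CG10472 averaged -0.57 ± 0.16 and the predicted lipase gene CG6296 -0.48 ± 0.41 (SD, n = 3 each). CG10513, of the ecdysteroid kinase-like family and not counted with these products, averaged -0.70 ± 0.23 (SD, n = 3). CG6296 was near 0 in pair 2 (-0.058), and CG10513 ranged from -1.76 on slide 28 to -0.11 on slide 2. Among 9 measured genes of the peritrophic matrix and mucin list 2 were negative and 7 positive, with a median of 0.34. That median is opposite in sign to CG7298 and CG32302, but none of the 9 genes was above 0 on all 6 slides. The highest means of the list, those of obst-A (1.75) and Gasp (1.22), came with negative values on slides 28 and 25.

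Of the 52 genes 24 carry only a CG number (46.2%, beside 31.9% of all 4144 genes), and the lowest mean of the set was one of them. CG18281 had -2.15 and -2.40 on slides 2 and 3, -1.45 and -1.16 on slides 30 and 29, and -1.03 and -0.74 on slides 28 and 25, a mean of -1.49 ± 0.71 (SD, n = 3). CG12880 averaged -1.34 ± 0.51 (SD, n = 3), with -0.43 on slide 30 and -2.18 on slide 2. Of its 16 measured spots 15 were negative, but slide 2 rested on spots at -3.63 and -0.72 and slide 28 on spots at -4.03 and 0.66. CG10912 had -1.56, -1.29, -1.65, -1.11, -0.72 and -1.02 on slides 2, 3, 30, 29, 28 and 25, a mean of -1.23 ± 0.31 (SD, n = 3). CG18281 and CG10912 were negative on all 18 spots and differed in their spread, CG18281 being lowest in pair 1 and CG10912 similar in pairs 1 and 2.

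CG9312 averaged -1.14 ± 0.44, with all 18 spots negative, and CG14897 -1.06 ± 0.39, with all 17 measured spots negative (SD, n = 3 each). CG14897 was not matched to the reference gene table and keeps the symbol of the platform annotation. CG2926 averaged -1.06 ± 0.42 (SD, n = 3) but 12 of its 17 measured spots were negative. CG9021 averaged -1.05 ± 0.30 (SD, n = 3) and differed sharply between orientations, as given below. These genes show that a similar mean can rest on uniform or on scattered spots.

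In the middle of the range CG9044 had -0.80 ± 0.35, CG11018 -0.73 ± 0.32, CG5011 -0.69 ± 0.31 and CG8768 -0.65 ± 0.32 (SD, n = 3 each). All 18 spots of CG11018 were negative, against 9 of 16 measured spots of CG9044, whose ratio was -0.37 with the median of spots. The remaining genes lay between -0.58 and -0.43, comprising CG5762, CG42676, CG17660, CG4896, CG30431, CG7006 (a relative of the ribosome biogenesis factor NIP7) and CG31706. CG42676 was the steadiest of them, with -0.48, -0.70 and -0.53 in the 3 pairs. CG30431 and CG7006 came nearest to 0, at -0.091 and -0.096 in pair 3.

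The channel component, the part of a ratio that does not turn with the dye flip, is a different contrast from the one that chose the genes. The rule nevertheless limits it, since a gene below 0 on every turned slide cannot have a channel component larger than its ratio. With limma 0 of 4723 rows (0%) passed the adjusted threshold and 434 (9.19%) had an unadjusted p under 0.05. With the pair as a replicate block, or 6 slides without a block, 0 rows passed as well. Among the 52 genes 2 had an unadjusted p under 0.05, CG9021 and sov, a share of 3.85%. CG9021 averaged -0.21 with banana RNA in channel 1 and -1.89 with cornmeal RNA in channel 1, a channel component of 0.84, positive in all 3 pairs (limma adjusted p = 0.475). Its cornmeal-orientation value rested on few spots, with 1 spot on slide 3 (-1.31), 1 on slide 29 (-2.27), and spots at 0.18, -0.59 and -5.82 on slide 25. For sov the orientations averaged -0.38 and -1.01, a component of 0.32 (limma adjusted p = 0.526). The component was positive in 30 of the 52 genes (57.7%, beside 45.0% of all 4144 genes) and negative in 22. It was under 25% of the mean for 35 of them. The rule favours a small component relative to the mean, and no such share is given for other genes. The median size of the component was 0.11, beside 0.13 for all genes.

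**Figure D4:**
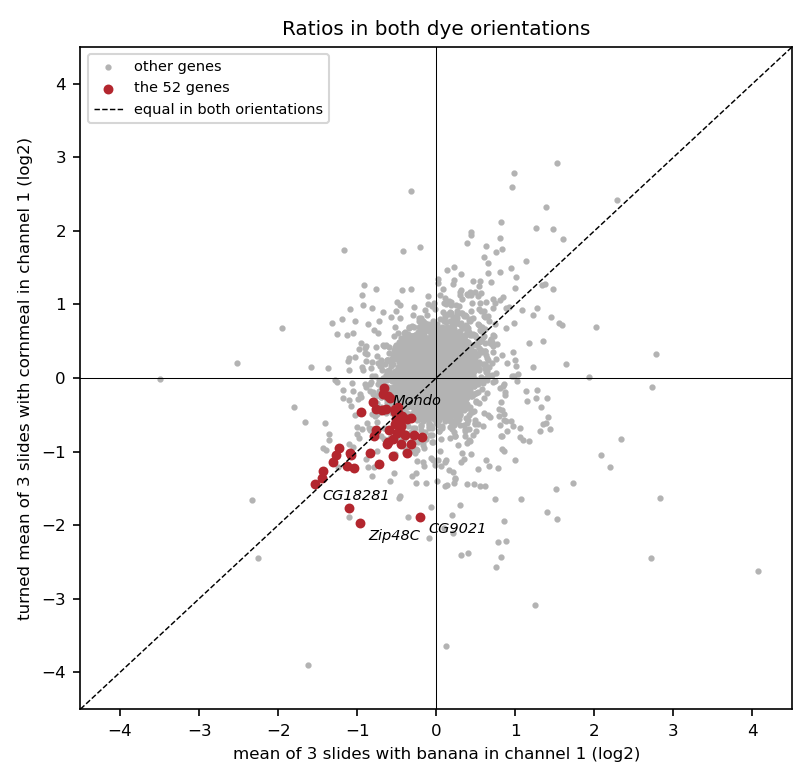
Mean log ratio over the banana-orientation slides (banana RNA in channel 1, n = 3; horizontal axis, log2) against the turned mean of the 3 slides with cornmeal RNA in channel 1 (vertical axis, log2) for the 4144 genes with 6 slides; red points are the 52 genes, grey points the others, and the dashed line marks equal ratios. CG9021 lies far from that line, at -0.21 and -1.89, while CG18281 lies close to it.

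Whether the ratio differed among pairs was asked with limma's F statistic, fitted to 6 turned slides with orientation as a covariate. Its error term is the spread between the 2 slides of a pair, which are repeat hybridisations, with 2 residual degrees of freedom. The p-values of this fit are therefore set against technical spread and not against spread between replicates. None of the 52 genes passed the adjusted threshold, which 5 of 4723 rows did (0.106%). An unadjusted p under 0.05 was found for 6 of the 52 genes (11.5%), near the 9.15% of all rows. CG18281, Alms1b, Faf2, CG1090 and Rca1 were the most negative in pair 1, and rdgB in pair 3 (limma adjusted p of 0.301, 0.520, 0.516, 0.450, 0.495 and 0.520, in that order). The rule, which demands one sign on all slides, also restricts this difference.

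Repeat spots show how evenly the ratio of a gene was carried within a slide. Of 1080 possible spots of the 52 genes 983 had a value (91.0%, beside 95.2% for all genes with 6 slides). With slides centred as in the rule, 828 of the 983 spots were negative, and every measured spot was negative for 7 genes. With each spot set centred on its own median, 863 spots were negative, and every measured spot was negative for 22 genes. The SD between the repeat spots of a slide had a median of 0.27 in the 52 genes and 0.21 in all genes, and it ran from 0.097 for CG10472 to 2.57 for CAH2. At least 90% of the measured spots were negative in 32 genes with spot sets centred. The slide means that chose the genes are averages of these spots, so a high share of negative spots follows from selection. The spot counts are therefore descriptions, and no such share is given for other genes. Signal over background is unknown for these spots.

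**Figure D5:**
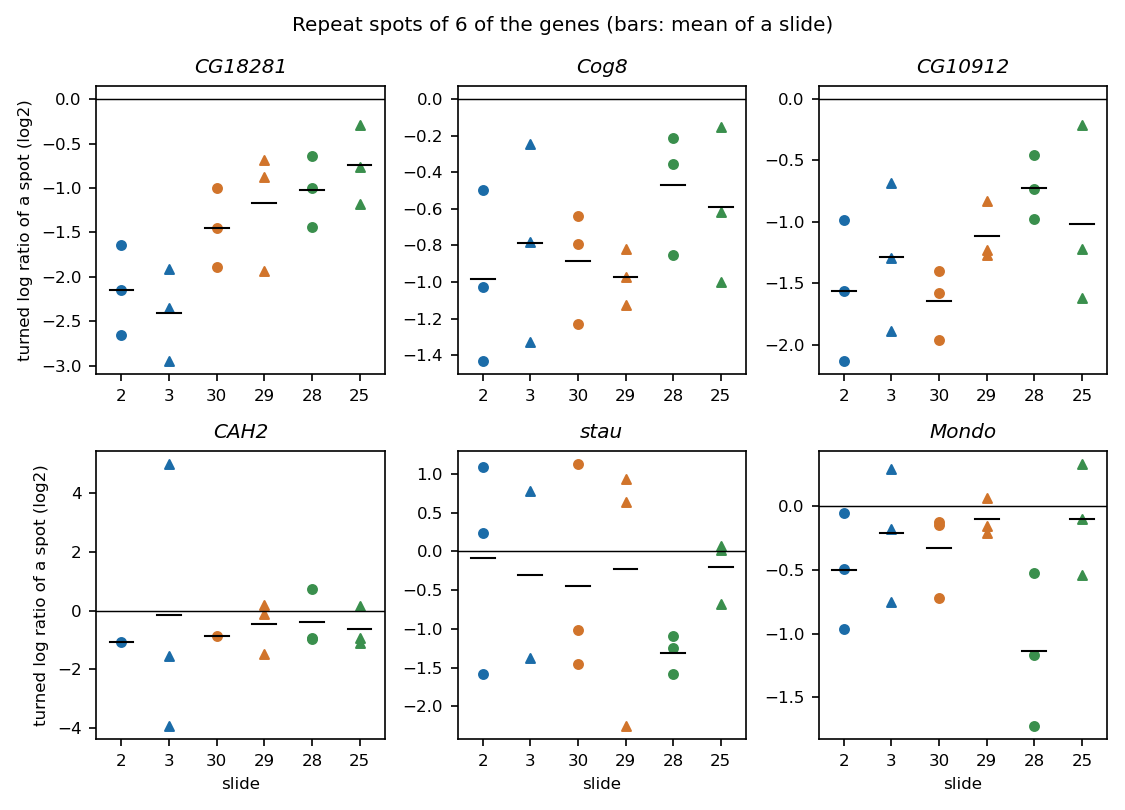
Turned, slide-centred log ratio of each repeat spot (vertical axis, log2, with its own scale in each panel) by slide (horizontal axis, slide number) for 6 genes chosen after their values were seen; colours mark the pair, circles slides with banana RNA and triangles slides with cornmeal RNA in channel 1, and bars the mean of a slide. All 18 spots of CG18281, Cog8 and CG10912 lie below 0, whereas CAH2 and stau have spots well above 0.

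Position in the genome and gene length were not used by the rule. Of the 51 genes found in the reference table, 6 lay on X, 11 on 2L, 10 on 2R, 11 on 3L, 13 on 3R and 0 on chromosome 4, shares that differ from those of all measured genes by less than 4 percentage points on every arm. The median gene length was 3290 bases, and 3394 bases over all measured genes. Of 24 measured genes outside the set that lie directly next to one of the 52, 16 had a negative mean (66.7%, beside 49.4% of the 4092 measured genes outside the set).

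Markers of tissues and cell types were counted because the labels name no tissue. None of these markers is among the 52 genes, although the gut markers yip7 (-0.88) and Jon65Aiii (-0.81) met the ratio rule and were left out by symbol. The median was -0.15 for 4 neural markers, of which 3 were negative, 0.45 for 5 muscle markers, all positive, and 0.02 for 7 gut markers, of which 3 were negative. It was 0.22 for 13 cuticle markers, with 5 negative. Fat body, haemocyte, male germline and female germline markers had 2 measured genes each, and salivary gland markers 0. Ratios of total RNA cannot tell a difference in the share of a cell type from a difference in RNA per cell. The part of tissue composition in the ratios of the 52 genes was not tested. Of the other lists, 4 signalling receptor and ligand genes had a median of -0.11, 10 transcription factor genes -0.17, 11 proteolysis genes 0.02 and 8 lipid and sterol genes -0.05, and none of their members is among the 52.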

How the data were processed

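The authors' table gives log ratios of 5620 probes in 18 columns, 1 for each of 3 repeat spot sets on 6 slides. The deposited values were taken as log2 because they run from -16.02 to 13.21, which does not settle the base. Scanning, background correction, normalisation, dyes and ratio direction are not given in the sources used here, and no channel intensities were used. Slide, spot set and flip partner come from the labels, which also give the pairing. Genes were named from the platform annotation, with a single gene for 4955 of 5620 probes, 4876 of which were found in the reference table of the Release 6 assembly. That table served for names, chromosome arms, gene lengths and gene order.

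Spot sets were averaged, slides centred on their medians and turned, and probes of a gene averaged. The 4723 rows with 6 slides were fitted with limma 3.58.1 in R 4.3.3 (lmFit, eBayes, two-sided, Benjamini-Hochberg, threshold 0.05), on 3 pair ratios for the diet and channel contrasts and on 6 slides for pair differences. The fits were checked on made-up slides. Figures used matplotlib 3.10.9. Alternatives covered spot averaging, centring, scaling, incomplete probes, probe averaging, the limit, each pair left out, the replicate block and no turning. The genes and all lists were chosen with earlier results of these data known, and 4 lists after the 52 genes had been seen. Genes were named for rank, steadiness, closeness to the limit, several probes, an unadjusted p under 0.05 in the channel or pair fit, a list, a neighbour or a known role, and all 52 are named. Promoter motifs that were planned were not searched, because no sequences were used here.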

Additional observations from a re-analysis of the deposited data

Results flagged for a closer look

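In 3 of the 52 genes 1 slide stood apart from the other 5 by more than Dixon's 95% criterion for 6 values (0.625 of the range). Chance meets this criterion in about 1 of 20 groups of unselected values. The 52 genes were chosen to lie below 0 on every slide with a low mean, so that rate need not hold for them. For sNPF-R slide 3 stood at -1.49 and the next slide at -0.72, and the mean without it was -0.59. For Hmt4-20 slide 3 stood at -1.82 and the next at -0.69, with a mean of -0.45 without it. That slide value is the average of a probe at -3.72 and a probe at 0.07. For stau slide 28 stood at -1.31 and the next at -0.45, and the mean of the other 5 slides was -0.25, above the limit of the rule.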

How the results depend on the processing

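The count of genes meeting the rule was between 40 and 68 with the median of spot sets, with spot sets centred, with no centring, with slides scaled by their MAD, with every probe required and with limits of -0.3 and -0.5. Of the 52 genes 38 remained under all of the first 4 of these. With the median of spots 41 remained, Mondo (-0.38), REPTOR (-0.68), stau (-0.28) and brn (-0.36) being among those that did not meet it. With probes measured in all 18 columns the count was 34, of which 30 are among the 52, and 18 of the 52 had no such probe on every slide. Leaving out a pair gave 81 to 198 genes, since 4 slides then have to share a sign, and 47 to 48 of the 52 remained. The 52 genes lie below 0 on any 4 of the slides by selection, so only the limit on the mean could remove a gene. With no slide turned, as if the authors had already turned the values, 47 genes met the rule and 0 of the 52 were among them. The median of the 52 was then 0.040 and 30 of them were positive. Whether the authors had turned the values is not known. In the other settings the median lay between -0.69 and -0.57, and the mean of each gene measured kept its sign except Hmt4-20, at 0.04 with complete probes. With a pair left out that sign was fixed by selection. Rows past the adjusted threshold (limma) numbered 20 for the diet contrast with the pair as a replicate block and 1 with no block, with the flip pairs as named in the labels. For the channel contrast they numbered 2 with the median of spots, 2 with no centring and 0 to 16 leaving out a pair (16 without pair 2). For pair differences they numbered 26 with the median of spots, 12 with no centring, 108 with complete probes, alt among them (adjusted p = 0.0297), and 0 to 49 leaving out a pair, with 49 without pair 2. The causes were not tested. Signal over background is unknown.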
